A study of Arabidopsis thaliana with 6 samples.

Results

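The cellulose synthase family CESA1 to CESA10 was followed in transcriptomes of sorted root quiescent centre (QC) cells. Its members were taken by their gene identifiers, 10 of the 37336 genes listed for each library, without use of any measured value. They comprise 7 members usually placed with the primary wall (CESA1, CESA2, CESA3, CESA5, CESA6, CESA9 and CESA10) and 3 of the secondary wall (CESA4, CESA7 and CESA8). The samples are 3 WT and 3 bravo-2 libraries of 5-day-old Arabidopsis thaliana seedlings of the Col-0 ecotype. All plants of both genotypes carried GFP under the WOX5 promoter (pWOX5:GFP), and GFP-marked cells were sorted from root protoplasts. bravo-2 is a mutant of BRAVO, a MYB transcription factor that restrains QC division, and the comparison asks which genes depend on it in these cells. The sort keeps whatever cells are GFP-positive, RNA of these few cells was amplified before sequencing, and the study's methods treat the sort as a batch that needed correction without naming the libraries that shared one. No fit with the sort as a term could therefore be made, and its part in the results was not tested. The p-values measure the spread between these libraries, which may be technical in part.

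Cellulose is made at the plasma membrane by rosette-shaped complexes that hold several kinds of CESA protein, each a glucosyltransferase that extends a glucan chain from UDP-glucose. In growing cells the complex needs CESA1, CESA3 and a member of the CESA6 type (CESA6, or the related CESA2, CESA5 and CESA9), and CESA10 is the closest relative of CESA1. In xylem and fibre cells a different complex of CESA4, CESA7 and CESA8 builds the secondary wall, and loss of any of these gives collapsed, irregular xylem vessels. In roots the primary-wall complex governs the elongation of cells as they leave the meristem.

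The catalytic part of every CESA holds the conserved motif Q-x-x-R-W, in which Q is glutamine, R arginine, W tryptophan and x any residue. The motif was found exactly 1 time in each of the 10 coding sequences. The 45 coding bases around it are shown to give the degree of likeness that a read has to resolve. They come from RefSeq TAIR10.1, lie within a single exon in each gene, and have the 15 bases of the motif in capitals.
CESA1 (chr4:15641856-15641900, minus strand): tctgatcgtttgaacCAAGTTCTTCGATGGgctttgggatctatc
CESA10 (chr2:10867910-10867954, minus strand): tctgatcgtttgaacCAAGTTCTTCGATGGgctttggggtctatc
CESA3 (chr5:1531318-1531362, minus strand): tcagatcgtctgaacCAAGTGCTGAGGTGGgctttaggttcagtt
CESA6 (chr5:25885370-25885414, plus strand): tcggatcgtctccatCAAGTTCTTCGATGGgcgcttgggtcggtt
CESA5 (chr5:3077034-3077078, plus strand): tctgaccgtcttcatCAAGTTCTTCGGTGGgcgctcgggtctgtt
CESA2 (chr4:18301000-18301044, plus strand): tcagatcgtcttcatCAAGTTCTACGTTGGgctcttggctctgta
CESA9 (chr2:9288573-9288617, plus strand): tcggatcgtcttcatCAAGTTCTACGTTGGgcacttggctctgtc
CESA4 (chr5:17718382-17718426, plus strand): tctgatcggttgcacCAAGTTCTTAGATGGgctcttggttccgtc
CESA7 (chr5:5737701-5737745, minus strand): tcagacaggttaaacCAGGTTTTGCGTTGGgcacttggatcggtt
CESA8 (chr4:10313697-10313741, minus strand): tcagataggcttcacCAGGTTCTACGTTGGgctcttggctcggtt

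In this stretch CESA1 and CESA10 differed at 1 base, CESA2 and CESA9 at 3, and CESA5 and CESA6 at 6. Over the whole coding sequence (2958 to 3267 bases) the identity of the 45 pairs ran from 67.6% to 85.8%. The closest pairs were CESA5 with CESA6 at 85.8%, CESA2 with CESA9 at 84.7% and CESA1 with CESA10 at 84.1%. The longest unbroken run shared by any pair was 50 bases, between CESA5 and CESA6. RSEM, which estimated the counts, reports how uncertain each count is through reads that match several genes, and this posterior SD was at most 0.87 reads for any member in any library. By this measure little of any member's count was uncertain between genes despite their likeness. It does not cover reads left out or misplaced at mapping. Overlapping neighbours are a separate limit, because the use of strand in counting is not stated. By annotation CESA1, CESA3, CESA4, CESA7, CESA8 and CESA10 overlap a gene on the opposite strand, by 28 to 89 bases for 5 of them, and CESA8 by 481 bases with AT4G18770. CESA4 also shares 17 bases with a neighbour on its own strand.

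The 6 libraries held between 10990217 and 14425249 estimated counts. Unless stated otherwise, a level below is in CPM, counts scaled to the size of the library with TMM factors, which compares a gene between libraries, and TPM, which also divides by transcript length, is used to compare genes. BRAVO measured 13.4, 37.8 and 60.9 CPM in WT replicates 1 to 3, against 13.9, 10.3 and 11.8 in bravo-2, so WT replicate 1 lay inside the range of the mutant. Its log2 fold change (bravo-2 over WT) was -1.63 (standard error 0.58, unadjusted p = 0.0244, adjusted p = 1.00, edgeR). Libraries of both genotypes differed widely in QC markers. The summed level of WOX5, AGL42, PLT1, PLT2, SCR and TEL1 was 623, 1785 and 1744 CPM in WT against 3292, 1036 and 499 in bravo-2. Hair cell markers (6 genes summed, EXPA7, EXPA18 and PRP3 the most abundant) were at 11.8 CPM in bravo-2 replicate 1 and between 1320 and 4061 CPM in the other libraries, which sets that library apart. In each of those other libraries the hair sum was above the QC marker sum, for instance 4061 against 623 CPM in WT replicate 1. The sums hold different genes and do not give shares of cells. A level below is therefore one of the sorted sample and not of QC cells alone. Root cap markers (led by SMB, BRN1 and FEZ) and phloem markers (led by APL, SUC2 and CALS7) summed to 63.9 to 159 CPM and 4.83 to 20.6 CPM. In these bulk samples, fewer cells of a type and less RNA per cell cannot be told apart.

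The CESA transcripts of the sorted cells were almost exclusively those of primary-wall members. Per length, the 7 primary-wall members summed to 1123, 583 and 417 TPM in WT replicates 1, 2 and 3 and to 221, 629 and 795 TPM in bravo-2 replicates 1, 2 and 3. The 3 secondary-wall members summed to 11.2, 3.98 and 6.78 TPM in WT and to 5.07, 4.55 and 7.01 TPM in bravo-2. Every primary-wall sum was above every secondary-wall sum, and the share of secondary-wall members in the CESA pool was between 0.678% and 2.24%. The ratio of primary-wall to secondary-wall TPM was 103 ± 42.6 in WT and 98.4 ± 49.0 in bravo-2 (SD, n = 3 each). The lowest ratio, 43.7, was in bravo-2 replicate 1 and the highest, 147, in WT replicate 2, so the genotypes overlapped and their means differed by less than the spread between replicates. All 10 members together held 0.0604% to 0.305% of a library's estimated counts.

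**Figure D1:**
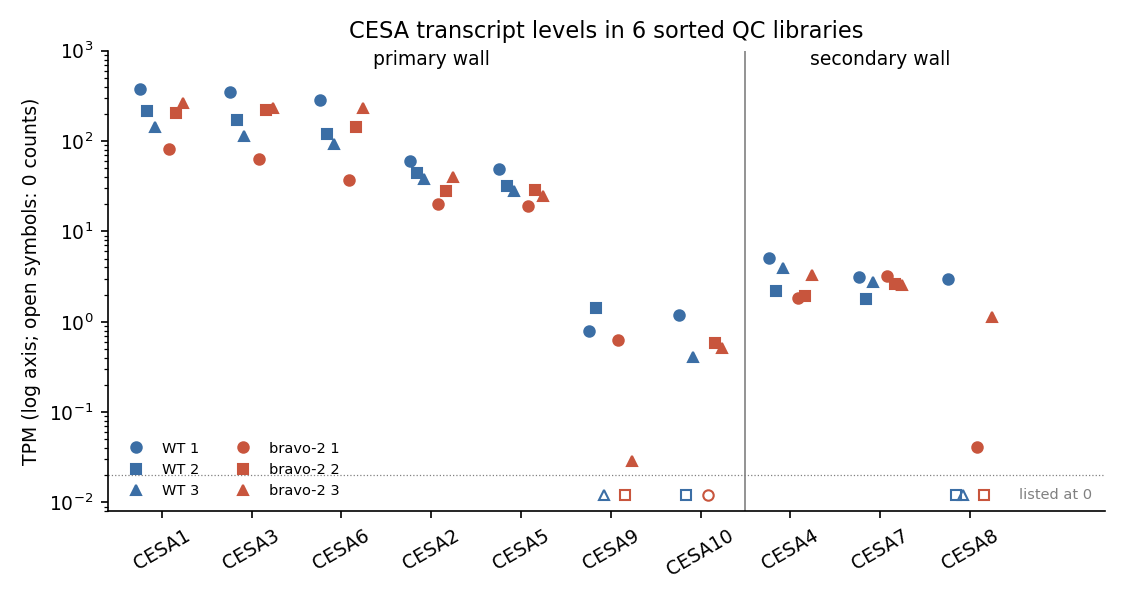
TPM of each CESA gene (log axis) in the 3 WT and 3 bravo-2 libraries, with symbols for the replicates and open symbols for libraries with 0 counts. CESA1, CESA3 and CESA6 lie at the top, CESA2 and CESA5 below them, and every value of the other 5 genes lies under every value of these 5.

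By mean TPM over the 6 libraries the order was CESA1 (214 ± 101, SD), CESA3 (192 ± 101), CESA6 (152 ± 92.0), CESA2 (38.4 ± 13.6), CESA5 (30.4 ± 10.4), CESA4 (3.06 ± 1.29), CESA7 (2.68 ± 0.519), CESA8 (0.695 ± 1.22), CESA9 (0.478 ± 0.576) and CESA10 (0.446 ± 0.437), with n = 6 for each. Neighbours in this order overlapped in range, except CESA5 and CESA4, whose values did not meet. Within a library the order was firmer than the ranges are, as CESA1 was above CESA3 in 5 of 6 libraries, CESA3 above CESA6 in 6 and CESA6 above CESA2 in 6. CESA2 was above CESA5 in 5 of 6. CESA4 was above CESA7 in 4 of 6, and the order of CESA8, CESA9 and CESA10 changed from library to library. In WT, CESA1 was more abundant by mean TPM than 98.1% of the genes listed, CESA3 than 97.7% and CESA6 than 96.9%. CESA2 and CESA5 were above 88.6% and 85.6%, and CESA4 and CESA7 above 58.5% and 55.7%. These shares are over all 37336 listed genes, of which between 21389 and 22618 had a count in a WT library. By rank CESA4 stood at 15506 and CESA7 at 16530, low among the genes with counts.

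CESA1 (AT4G32410; chromosome 4 from 15640490 to 15646844 of TAIR10.1, minus strand, 14 exons) is the core subunit mutated in rsw1 plants, whose roots swell at high temperature. It measured 1235, 568 and 424 CPM in WT replicates 1 to 3, against 178, 570 and 935 in bravo-2. WT replicate 1 was the highest library and bravo-2 replicate 1 the lowest, with the other 4 between them and no separation of the genotypes. Mean levels were 742 ± 432 CPM in WT and 561 ± 379 CPM in bravo-2 (SD, n = 3 each). The log2 fold change (bravo-2 over WT, negative where the mutant is lower) was -0.41, with a 95% interval from -2.17 to 1.36 (edgeR's quasi-likelihood test, adjusted p = 1.00).

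CESA3 (AT5G05170; chromosome 5 from 1530132 to 1535558, minus strand, 15 exons), listed as CEV1 in the name table, is the second core subunit of the primary-wall complex. It had 1043, 401 and 304 CPM in WT against 126, 548 and 748 in bravo-2. The 6 libraries fell in the same order as for CESA1, WT replicate 1 first and bravo-2 replicate 1 last. Its log2 fold change was -0.30, with a 95% interval from -2.17 to 1.57 (adjusted p = 1.00, edgeR).

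CESA6 (AT5G64740; chromosome 5 from 25881033 to 25886728, plus strand, 13 exons), the PROCUSTE gene needed for root and dark-grown hypocotyl elongation, had the widest range of the 7 tested members. Its levels were 941, 312 and 273 CPM in WT against 81.3, 393 and 803 in bravo-2, an 11.6-fold range. The same range was 8.27-fold for CESA3 and 6.95-fold for CESA1. Of the 15739 genes tested, 16.2%, 20.9% and 24.8% had a wider range than CESA6, CESA3 and CESA1. Genes with under 3 counts in any library were counted as wider, and genes were not matched for level. The log2 fold change of CESA6 was -0.26, with a 95% interval from -2.34 to 1.82 (adjusted p = 1.00, edgeR).

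CESA2 (AT4G39350; chromosome 4 from 18296388 to 18302192, plus strand, 13 exons) and CESA5 (AT5G09870; chromosome 5 from 3072870 to 3078416, plus strand, 13 exons) are partly redundant with CESA6, and CESA5 also makes cellulose of seed coat mucilage. CESA2 measured 198, 117 and 113 CPM in WT against 44.9, 77.7 and 143 in bravo-2. CESA5 measured 161, 81.3 and 81.9 CPM in WT against 40.8, 78.1 and 85.8 in bravo-2. For both genes bravo-2 replicates 1 and 2 were below every WT library, while bravo-2 replicate 3 was not. Their log2 fold changes were -0.69 for CESA2 (95% interval -1.97 to 0.59) and -0.66 for CESA5 (-1.82 to 0.49), with adjusted p = 1.00 for each (edgeR). Their ranges over the 6 libraries, 4.42-fold and 3.93-fold, were narrower than those of CESA1, CESA3 and CESA6.

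CESA9 (AT2G21770; chromosome 2 from 9284391 to 9289744, plus strand, 13 exons) and CESA10 (AT2G25540; chromosome 2 from 10866822 to 10872243, minus strand, 14 exons) complete the primary-wall group, and CESA9 is known from the seed coat. CESA9 had 30, 41 and 0 counts in WT and 18, 0 and 1 in bravo-2. CESA10 had 40, 0 and 14 counts in WT and 0, 16 and 16 in bravo-2. Each was at 0 in 2 libraries, which at these depths allows a level of up to 0.222 to 0.273 CPM in those libraries before TMM scaling and covers counting error only. Both fell under the filter of a mean of 4 CPM in at least 1 genotype and were not tested.

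The secondary-wall members were low, and CESA8 was patchy. CESA4 (AT5G44030; chromosome 5 from 17714390 to 17719723, plus strand, 11 exons in the longest of 3 annotated transcripts) is the IRX5 gene and was counted 163, 54 and 124 times in WT and 41, 54 and 105 times in bravo-2, or 2.95 to 13.4 CPM. CESA7 (AT5G17420; chromosome 5 from 5736630 to 5741500, minus strand, 12 exons), the IRX3 gene, had 102, 44 and 90 counts in WT and 78, 68 and 76 in bravo-2, or 3.73 to 8.39 CPM. CESA7 had the narrowest range of the 7 tested members, 2.25-fold, and 77.5% of all genes tested had a wider one, counted in the same way. The log2 fold change of CESA4 was -0.63 (95% interval -2.23 to 0.96) and that of CESA7 was -0.01 (-1.32 to 1.29), with adjusted p = 1.00 for both (edgeR). CESA8 (AT4G18780; chromosome 4 from 10312624 to 10316886, minus strand, 12 exons), the IRX1 gene, had 95, 0 and 0 counts in WT and 1, 0 and 33 in bravo-2, was under the filter and was not tested.

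The ratio of CESA7 to CESA4 in TPM was 0.630, 0.803 and 0.699 in WT and 1.72, 1.35 and 0.764 in bravo-2. The bravo-2 range took in the highest WT value, and the ratio was read from between 41 and 163 counts of CESA4. The libraries in which CESA8 had more than 1 count, WT replicate 1 and bravo-2 replicate 3, were also the highest in xylem markers. XCP2, a protease of xylem vessels, had 120, 11 and 9 counts in WT and 0, 3 and 61 in bravo-2. XCP1, a related protease, had 56, 36 and 6 counts in WT and 8, 8 and 72 in bravo-2. LAC4, a laccase of xylem lignin, had 154, 92 and 77 counts in WT and 0, 27 and 159 in bravo-2, so that it was also present in WT replicates 2 and 3, where CESA8 was at 0. Over the whole list of 7 xylem markers (XCP1, XCP2, VND7, VND6, IRX6, LAC4, IRX9) the summed level was 37.5, 14.2 and 9.25 CPM in WT against 1.01, 5.77 and 31.6 in bravo-2. No marker was at 0 in every library, but only 2 of the 7 passed the filter. VND6 had at most 2 counts and was at 0 in WT replicate 1, and VND7 had at most 8 counts and 1 in bravo-2 replicate 3. LAC4, IRX6 and IRX9 are also in the list of secondary-wall genes described last, and VND6 and VND7 in that of regulators. The part of xylem cells in the CESA8 values was not tested.

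The bravo-2 libraries gave no call for any CESA gene. In the comparison of genotypes 7 of the 10 members were tested, and 0 of 7 had an adjusted p under 0.05, where 0 of all 15739 genes did (0.0%). At an unadjusted p under 0.05 there were also 0 of 7, against 125 genes or 0.794% of all tested (0.381% lower and 0.413% higher in bravo-2). The WT and bravo-2 libraries were fully apart for 0 of 7 members, against 3.67% of all genes (1.99% with every bravo-2 library lower and 1.68% with every one higher). The exact permutation test over the 6 libraries on log2 CPM (two-sided, smallest possible p 0.1) gave p between 0.3 and 0.9 for the tested members. All 7 fitted log2 fold changes were below 0, as were those of 45.7% of all genes, although CESA7 turned to 0.039 with upper quartile scaling. The median was -0.41 over the 5 tested primary-wall members and -0.32 over CESA4 and CESA7, while over all genes it was 0.04. The intervals are wide, and for CESA1 they allow anything from a 0.222-fold to a 2.57-fold level in the mutant.

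**Figure D2:**
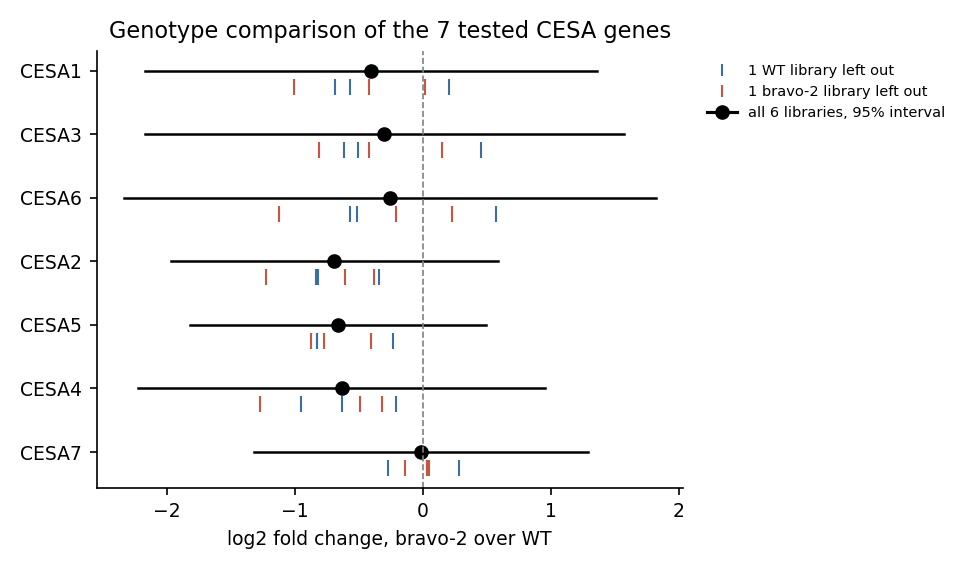
Log2 fold change of bravo-2 over WT for the 7 tested CESA genes (black points with 95% intervals, edgeR, 6 libraries) and the same value with 1 library left out (ticks, blue for a WT and red for a bravo-2 library). All intervals include 0, and the ticks of CESA1, CESA3, CESA6 and CESA7 lie on both sides of 0 whereas those of CESA2, CESA5 and CESA4 stay below it.

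The direction for CESA1, CESA3 and CESA6 rested on WT replicate 1 and bravo-2 replicate 1. Without WT replicate 1 their log2 fold changes were 0.21, 0.46 and 0.57, and without bravo-2 replicate 1 they were 0.015, 0.15 and 0.23 (adjusted p = 1.00 for each, edgeR). With libraries blocked by the first number in their titles, whose meaning the labels do not give, the same 3 genes were at -1.04, -1.07 and -1.08 (adjusted p = 1.00 for each, edgeR). In that fit only WT replicates 1 and 2 and bravo-2 replicates 1 and 3 enter the comparison of genotypes. CESA7 also changed sign with single libraries, between -0.27 and 0.29. CESA2 stayed between -1.23 and -0.34, CESA5 between -0.87 and -0.23 and CESA4 between -1.27 and -0.20 with any 1 library left out. CESA2 passed the threshold in 1 of the other analyses, in which the first component of the variation within genotypes was taken out before a limma test (log2 fold change -0.79, adjusted p = 0.0337 with limma, and 0.0337 to 1.00 over all the analyses run). That removal takes away variation between replicates without reducing the degrees of freedom, and 676 of all genes passed in it.

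Although the summed primary-wall level ran from 221 to 1123 TPM over the libraries, the shares of the positions of the primary-wall complex stayed within a narrow band. CESA1 made up 33.3%, 37.1% and 34.4% of the summed primary-wall TPM in WT replicates 1, 2 and 3, and 36.5%, 32.9% and 33.3% in bravo-2. CESA3 made up 31.1%, 29.0% and 27.2% in WT and 28.6%, 35.0% and 29.5% in bravo-2. The CESA6 type, that is CESA6, CESA2, CESA5 and CESA9 summed, made up 35.5%, 33.9% and 38.3% in WT and 34.9%, 32.0% and 37.1% in bravo-2. Each position thus held between 27.2% and 38.3% of the pool in each of the 6 libraries, and the genotypes overlapped for every position. These are shares of transcripts, and how many proteins of each kind enter a complex was not measured.

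**Figure D3:**
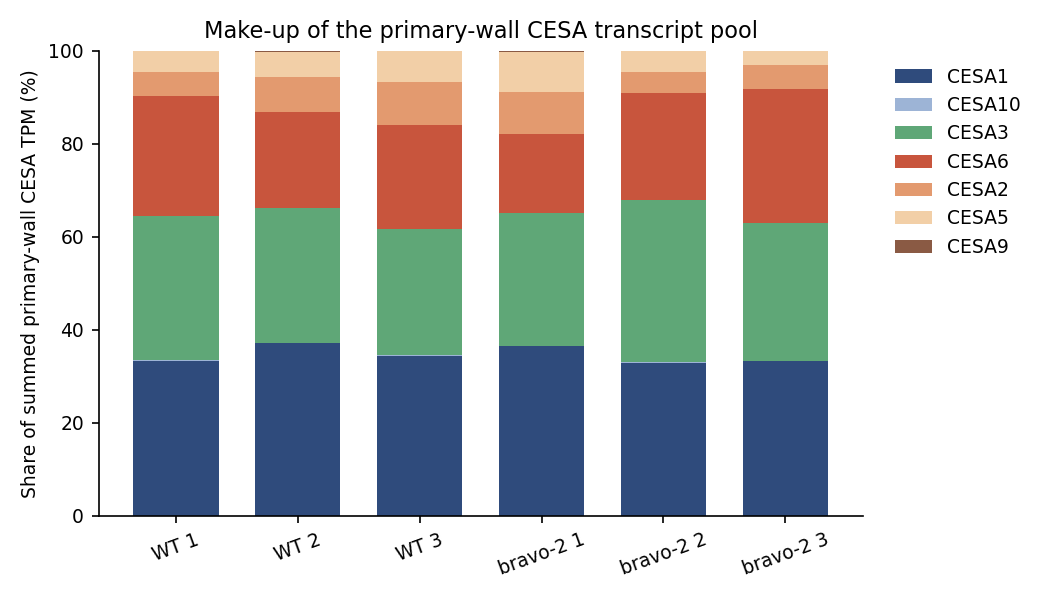
Stacked shares of the 7 primary-wall CESA genes in their summed TPM (%) for each of the 6 libraries. The CESA1 share (dark blue) and the CESA3 share (green) stay between 27.2% and 37.1%, while within the remainder CESA6 (red) is smallest in bravo-2 replicate 1 and largest in bravo-2 replicate 3.

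Inside the CESA6 type the make-up did change between libraries. CESA6 supplied 72.4%, 61.0% and 58.5% of its TPM in WT and 48.4%, 71.7% and 78.0% in bravo-2, so the lowest and the highest values were both in the mutant. CESA2 supplied 15.0%, 22.3% and 23.8% in WT and 26.3%, 13.9% and 13.6% in bravo-2. CESA5 supplied 12.4%, 16.0% and 17.7% in WT and 24.5%, 14.4% and 8.40% in bravo-2, and CESA9 at most 0.812%. The ratio of CESA6 to CESA5 ran from 1.97 in bravo-2 replicate 1 to 9.28 in bravo-2 replicate 3. These were the libraries with the highest and the lowest summed QC markers, and the part of cell composition in the ratio was not tested.

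The profiles over the libraries were compared as the root mean square difference of log2(CPM + 1) after each gene was centred on its own mean, a description over 6 libraries with no test. Among the 21 pairs of tested members the closest were CESA1 and CESA3, at 0.16, and the farthest CESA6 and CESA7, at 1.03, with a median of 0.52. CESA3 and CESA6 were at 0.24 and CESA2 and CESA5 at 0.24. CESA5 and CESA6, the pair with the most similar coding sequence, were at 0.70. CESA1 and CESA3, with the closest profiles, shared 71.0% of their coding bases. CESA2 was nearer to CESA4 (0.30) than to CESA6 (0.62).

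**Figure D4:**
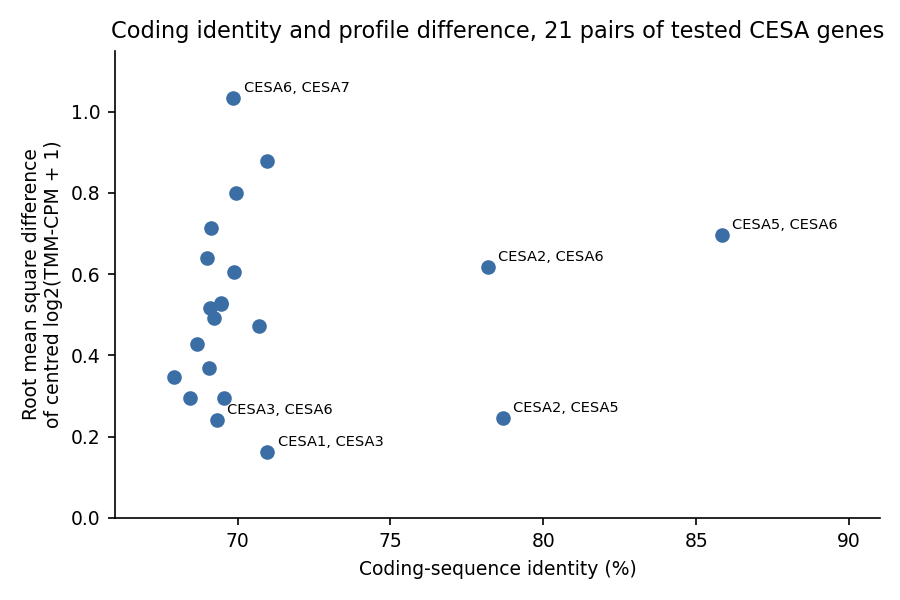
Coding-sequence identity (%) against the root mean square difference of the centred log2 profiles for the 21 pairs of tested CESA genes, where each point is a pair. CESA5 with CESA6 lies far right at 85.8% identity and a difference of 0.70, and CESA1 with CESA3 lies lowest at 71.0% and 0.16.

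CESA5 and CESA6 were the closest pair in coding sequence but differed by 0.70 in profile. Both were highest in WT replicate 1 and lowest in bravo-2 replicate 1, so this difference was partly one of the size of movement. The 250 bases before their annotated starts (RefSeq TAIR10.1) are given. The capitals mark the longest run that the windows share on the same strand, 13 bases.
CESA5 (chr5:3072620-3072869, plus strand): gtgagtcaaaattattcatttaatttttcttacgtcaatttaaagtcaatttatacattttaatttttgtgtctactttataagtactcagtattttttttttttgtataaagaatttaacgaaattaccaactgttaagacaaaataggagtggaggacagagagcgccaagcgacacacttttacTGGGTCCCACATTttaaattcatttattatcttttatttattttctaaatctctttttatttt
CESA6 (chr5:25880783-25881032, plus strand): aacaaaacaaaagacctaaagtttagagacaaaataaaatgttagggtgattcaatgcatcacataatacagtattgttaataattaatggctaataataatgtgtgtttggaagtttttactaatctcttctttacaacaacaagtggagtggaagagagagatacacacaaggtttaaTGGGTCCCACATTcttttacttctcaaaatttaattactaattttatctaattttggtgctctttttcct

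The run starts 63 bases before the CESA5 start and 70 bases before the CESA6 start. It was the longest among the 45 pairs of members and was picked for that. Of 27443 promoter windows of 250 bases, 3 hold it on either strand (0.0109%), those of CESA5 and CESA6 among them. Any given run of 13 bases is rare in such windows by its length, so this count only describes the run. The run contains a match to GGNCCCAC (other strand GTGGGNCC), the consensus of class I TCP transcription factors, which 299 of the 27443 windows hold (1.09%). CESA5 and CESA6 had 1 match each and the other 8 members had 0 in this window. A match describes the letters only and says nothing about binding in these cells.

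Between libraries, the primary-wall CESA level ran broadly opposite to the QC markers, though not in every pair of libraries. The 3 libraries with the highest summed primary-wall level, WT replicate 1 (3584 CPM), bravo-2 replicate 3 (2715 CPM) and bravo-2 replicate 2 (1668 CPM), were the 3 with the lowest summed QC markers (623, 499 and 1036 CPM). bravo-2 replicate 1 had the lowest CESA sum, 472 CPM, and the highest QC marker sum, 3292 CPM. WT replicate 2 (1483 CPM for CESA, 1785 CPM for QC markers) was above WT replicate 3 (1197 and 1744 CPM) in both sums. WT replicate 1 was likewise above bravo-2 replicate 3 in both. WOX5 itself, whose promoter drove the sorting marker, measured 80.8, 262 and 375 CPM in WT against 447, 120 and 97.1 in bravo-2. Hair cell markers were lowest in bravo-2 replicate 1 and highest in WT replicate 1, like CESA1, but CESA1 was lower in WT replicate 3 than in bravo-2 replicate 2 while the hair sum was higher (3410 against 1320 CPM). The part of other cell types in the CESA levels was not tested.

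**Figure D5:**
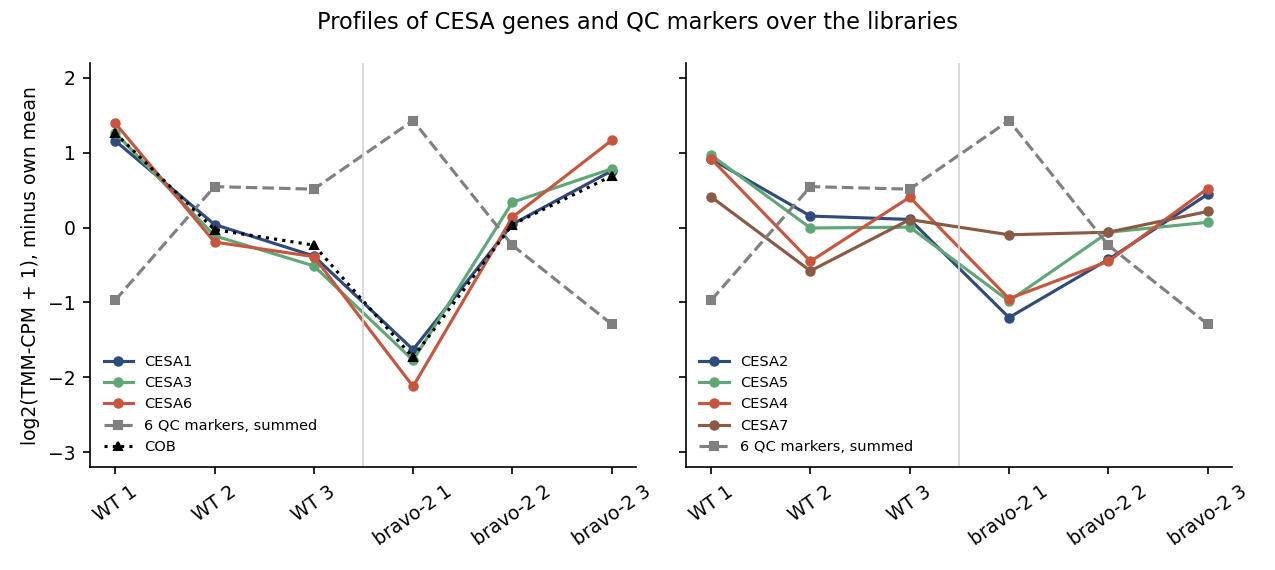
Centred log2(TMM-CPM + 1) over the 6 libraries for CESA1, CESA3, CESA6 and COB (left) and CESA2, CESA5, CESA4 and CESA7 (right), with the summed level of 6 QC markers as a grey dashed line in both panels. The QC line peaks in bravo-2 replicate 1, where every line on the left has its lowest point, and CESA7 moves least.

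The gene with the profile most like the summed primary-wall level was COB (COBRA), a GPI-anchored protein needed for oriented cellulose deposition in the root, at a difference of 0.08. COB measured 282, 115 and 99.3 CPM in WT against 34.4, 120 and 189 in bravo-2. It was followed by IAA14 (0.09), an auxin response repressor, and ABCB4 (0.10), an auxin transporter of the root. In all, 148 of the tested genes lay within 0.25 of this profile. For the secondary-wall sum the nearest were AT4G17940 (0.15), AT5G45440 (0.16) and AT2G36680 (0.16), none of them in the lists of secondary-wall genes used here.

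Partners of the complex gave no call. Of 15 listed, 14 were tested, 12 with a lower and 2 with a higher fitted level in bravo-2, a median log2 fold change of -0.33 beside 0.04 over all genes, and 0 with an adjusted or unadjusted p under 0.05 (edgeR). Without WT replicate 1, 4 of 14 were lower. Of all genes tested 45.7% were lower and 0.794% had an unadjusted p under 0.05 (edgeR), shares that also stand beside the lists below. The most abundant were CTL1, a chitinase-like protein of cellulose assembly, COB, and KOR1, the membrane-bound endoglucanase of the complex. CTL1 measured 530, 227 and 251 CPM in WT against 42.9, 194 and 534 in bravo-2. KOR1 measured 315, 126 and 96.8 CPM in WT against 55.7, 124 and 235 in bravo-2. As with CESA1, bravo-2 replicate 1 was the lowest library for all 3 genes, and the WT range overlapped that of the mutant.

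Of 7 receptors and cell surface proteins that sense or signal wall state, 7 were tested, 6 with a lower and 1 with a higher fitted level (median -0.38, beside 0.04 over all genes). None had an unadjusted p under 0.05 (edgeR). Without WT replicate 1, 4 of 7 were lower, and without bravo-2 replicate 1, 5 of 7. FER (FERONIA), a receptor kinase of wall sensing, measured 448, 200 and 215 CPM in WT against 47.5, 152 and 446 in bravo-2. THE1 (THESEUS1), a receptor kinase that checks growth when cellulose is deficient, had the log2 fold change -1.01 (standard error 0.61, adjusted p = 1.00, edgeR), from 162, 76.2 and 72.4 CPM in WT against 23.3, 43.4 and 88.1 in bravo-2. HERK1, a relative of both, measured 32.6 to 122 CPM over the 6 libraries.

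Of 6 sucrose synthases, enzymes that can supply UDP-glucose, 2 passed the filter (SUS1 and SUS3). SUS1 measured 4.11, 2.97 and 4.26 CPM in WT against 21.5, 7.38 and 7.96 in bravo-2, so every mutant library was above every WT library, as for 1.68% of all genes. Its log2 fold change was 1.70 (standard error 0.62, unadjusted p = 0.027, adjusted p = 1.00, edgeR), so the difference did not pass the threshold. SUS3 measured 32.5, 53.5 and 14.2 CPM in WT against 16.5, 13.7 and 12.7 in bravo-2, with 1 WT library inside the mutant range. SUS2 had between 0 and 67 counts and was not tested.

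The cellulose synthase-like D family, whose products make glucan at root hair tips and cell plates, was compared because it is the nearest family to the CESAs. CSLD3, needed for root hairs, measured 1340, 589 and 666 CPM in WT against 112, 518 and 935 in bravo-2. CSLD2 measured 754, 380 and 382 CPM in WT against 154, 301 and 609 in bravo-2. CSLD5, which acts at the cell plate of dividing cells, ran the other way, with 19.8, 41.6 and 52.9 CPM in WT against 81.3, 44.3 and 2.56 in bravo-2. It was highest in bravo-2 replicate 1, where CESA1, CESA3 and CESA6 were lowest, and lowest in bravo-2 replicate 3. Of the 6 genes 4 were tested, 2 lower and 2 higher, with a median of -0.17 and 0 with an unadjusted p under 0.05 (edgeR).

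The regulators of secondary-wall formation were at or near 0. Of 14 listed NAC and MYB factors 0 passed the filter, 6 stayed under 3 counts in every library, and 4 of these had 0 counts throughout. MYB46, a direct activator of CESA4, CESA7 and CESA8, had 19, 0 and 15 counts in WT and 0, 12 and 11 in bravo-2. NST1 had 15 counts in WT replicate 3, 7 in bravo-2 replicate 3 and 0 elsewhere. VND3 had at most 18 counts. The summed level of the 14 factors was between 0.424 and 5.59 CPM in WT and between 0.36 and 3.60 CPM in bravo-2.

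Of 14 genes of secondary-wall polymers 6 passed the filter, 5 lower and 1 higher in bravo-2, with a median of -0.31 and 0 with an unadjusted p under 0.05 (edgeR). The 3 of highest mean TPM, IRX14, IRX10 and IRX15-L, belong to xylan synthesis. IRX14 measured 62.6 to 125 CPM and IRX10 11.3 to 32.7 CPM over the 6 libraries, with log2 fold changes of -0.10 and -0.01. IRX15-L measured 2.73 to 8.05 CPM. Without WT replicate 1, 2 of 5 tested genes of this list were lower in bravo-2.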

How the data were processed

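RNA of GFP-sorted QC cells was profiled in 3 WT and 3 bravo-2 libraries. The authors used cutadapt for trimming, STAR for mapping to TAIR10 and RSEM for quantifying Araport11 genes (versions and strand setting not given in the sources used here). They deposited for each library RSEM's expected counts, without scaling, beside TPM, effective length and the posterior SD of each count. TPM was recomputed from counts and effective length, and the deposited TPM served as an alternative.

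Expected counts were rounded. The 15739 of 37336 genes whose mean reached 4 CPM in either genotype were scaled by TMM and compared with edgeR's quasi-likelihood test, adjusted by Benjamini-Hochberg over all of them, with a threshold of 0.05 and 95% intervals. Standard errors and intervals were derived from the F statistic of that test. The code was tested on simulated data. Software comprised edgeR 4.0.16, limma 3.58.1 and DESeq2 1.42.0 in R 4.3.3, with Biopython 1.88 in Python 3.11.15. Members were listed by identifier alone, but earlier results of these data were known when members, gene lists and alternatives were chosen. Named were all members, the 3 genes of highest mean TPM in every other list, any listed gene with an unadjusted p under 0.05, the 3 nearest profiles to each sum, BRAVO and WOX5. The values of 1 marker list are not reported here. Alternatives were upper quartile scaling, DESeq2, no filter, at least 10 counts in every library, limma (pseudocount 1), the same after taking out the first residual component, blocks for the replicate number or the numbers of the title code, and leaving out each library. The authors' NOISeq and ARSyN steps were not repeated. Positions and sequences are from RefSeq TAIR10.1, since the files hold none. The Q-x-x-R-W motif was searched in the translated coding sequences, and no other protein sequence was used here.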

Additional observations from a re-analysis of the deposited data

How the results depend on the processing

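Against 0 genes with an adjusted p under 0.05 in edgeR, DESeq2 called 13, edgeR with no filter 1 and limma after removal of the first residual component 676. The 125 genes with an unadjusted p under 0.05 became 195, 325 and 2965 in the same 3 analyses. They became 11 and 196 with a block for the first or the last number of the title code, and 75 to 873 with 1 library left out. Of the CESA genes, 1 was called in any alternative, CESA2 after component removal (-0.79). CESA7 (-0.01) turned to 0.039 with upper quartile scaling, to 0.040 with limma, to 0.040 with component removal, and to 0.18 with the first-number block, which moved the median of all genes by -0.13 and CESA1, CESA3 and CESA6 to -1.04, -1.07 and -1.08. With 1 library left out the log2 fold change ran from -1.01 to 0.21 for CESA1, -0.81 to 0.46 for CESA3, -1.12 to 0.57 for CESA6 and -0.27 to 0.29 for CESA7, and the cause was not tested. CESA2, CESA4 and CESA5 stayed below 0 in every alternative run. In the last-number block only WT replicate 1 and bravo-2 replicate 3 share a number across genotypes, so it compares those libraries alone. The first-number block compares WT replicate 1 with bravo-2 replicate 1 and WT replicate 2 with bravo-2 replicate 3. With the replicate number as a block, 52 genes had an unadjusted p under 0.05, CESA7 turned to 0.056 and no other CESA gene changed sign. Deviations of same-numbered libraries correlated at -0.72, -0.07 and -0.43. Deviations within a genotype sum to 0, so these values cannot decide whether the numbers pair the libraries, which the labels do not state. With 3 libraries a genotype and ranges up to 11.6-fold, differences inside the printed intervals were not detectable, and CESA8, CESA9 and CESA10 were limited by counts.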
